A study of Mus musculus with 6 samples.

Results

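The kappa V segments are the 160 gene symbols that begin with Igkv in the day 14 table, of 31053 symbols listed there. The chimaera table lists 117 of them among its 15763 symbols. Members were taken by symbol alone, with no use of measured values, and GENCODE vM21 (GRCm38, the mm10 build) classes 100 of the 160 as functional V genes and 60 as V pseudogenes, in 20 families. All lie on chromosome 6 between 67555497 and 70704177, from 18.4 kb to 3166 kb from Igkj1, the J segment nearest to them.

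A kappa light chain is made when a B cell joins a V segment to a J segment by recombination, so that each cell usually transcribes a single rearranged V segment at a high level. The V segment encodes most of the antigen-binding part of the light chain, and binding depends on its pairing with a heavy chain built from an Ighv segment. In germinal centres, where B cells divide, mutate their antibody genes and are selected, descendants of a founder keep its V segments, so a frequent V pair can mark many cells of a few clones. The response of C57BL/6 mice to the hapten NP is known for lambda light chains paired with Ighv1-72 (V186.2), and kappa cells accompany it.

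The data were 5′-end droplet RNA counts of splenic B cells sorted as B220+ CD95hi GL7hi IgD-, a germinal centre phenotype, taken 14 days after NP-haptenated antigen was given in alum. The KO library came from reverse chimaeras in which irradiated Ccl19Cre/+ Il4raf/f hosts received wild type marrow. The control library came from irradiated Il4ra+/+ hosts given wild type marrow, and the libraries Day14 1 and Day14 2 came from wild type mice that the labels do not describe as chimaeras. The Cre is driven by Ccl19, a gene of lymphoid stromal cells, and the sorted B cells descend from wild type marrow in both chimaeras unless host B cells remained, so Il4ra in them does not check the deletion (63.1 CPM in KO and 54.0 CPM in control). The labels do not say whether the Day14 libraries are separate animals or how many animals each library pools. The difference between the Day14 libraries is therefore the difference between libraries, which may be technical.

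The libraries held 7314 cells and 59690886 UMIs (KO), 8038 cells and 62202828 UMIs (control), 9109 cells and 35637133 UMIs (Day14 1), and 10648 cells and 39839045 UMIs (Day14 2). The B cell genes Cd79a and Ms4a1 stood at 1568 to 2641 CPM and 994 to 1162 CPM, while the summed myeloid list stood at 17.7 to 63.8 CPM and the summed T cell list at 56.4 to 125 CPM. Igkv transcripts made up 0.577% of UMIs in KO, 1.06% in control, 0.196% in Day14 1 and 0.181% in Day14 2. A median cell carried 19 Igkv UMIs in both chimaeras and 2 in both Day14 libraries. There were 6.89 and 8.35 Igkv UMIs for each Igkc UMI in KO and control, against 0.539 and 0.469 in Day14 1 and Day14 2. Levels are therefore not compared between the tables, which differ in construction, and only the makeup within Igkv is set side by side. Between 90 and 135 cell barcodes were shared by any pair of libraries.

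A cell was assigned a segment when its top Igkv gene had at least 3 UMIs and at least 60% of the cell's Igkv UMIs. This assigned 60.4% of KO cells, 58.5% of control cells, 37.2% of Day14 1 cells and 40.5% of Day14 2 cells. Cells whose light chain constant UMIs were at least 90% lambda, with at least 10 of them, serve as a background, because they should lack a kappa chain. Of these lambda cells, 46.2% in KO, 46.6% in control, 8.11% in Day14 1 and 7.88% in Day14 2 were assigned a kappa segment. Among cells with the same share of Igkc the assigned share was 75.4%, 77.2%, 52.2% and 53.7% in the same order of libraries. There were 290, 453, 296 and 165 such lambda cells and 199, 237, 1823 and 2607 such kappa cells. Most cells of the chimaeras thus met neither rule. The median depths were 9856, 8850, 5969 and 6042 UMIs in lambda cells and 4994, 5115, 3586 and 3555 UMIs in kappa cells. The chimaera libraries thus carried a high kappa background in lambda cells and the Day14 libraries a low one, so single-cell calls in the chimaeras are less certain. Outside the plasma-like clusters, lambda cells held a median of 6 Igkv UMIs in KO and 8.5 in control, against 19 and 18 in the remaining cells, and 0 in both Day14 libraries against 2. The makeup of these Igkv UMIs overlapped by 71.4% (KO) and 74.0% (control) with that of the remaining cells, and by 41.5% and 65.2% with that of plasma-like cells. How much of it is free RNA and how much is made by the cells was not tested.

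The segments the results turn on belong mainly to families 3 and 6. The 3 family 3 segments that led the Day14 libraries are shown first, each as the first 300 bases of the coding sequence from the start codon, spliced, with capitals at bases that differ from Igkv3-2. Igkv3-2 lies at chr6:70698449-70699067, Igkv3-5 at chr6:70663275-70663895 and Igkv3-10 at chr6:70572633-70573230, all on the plus strand.
Igkv3-2: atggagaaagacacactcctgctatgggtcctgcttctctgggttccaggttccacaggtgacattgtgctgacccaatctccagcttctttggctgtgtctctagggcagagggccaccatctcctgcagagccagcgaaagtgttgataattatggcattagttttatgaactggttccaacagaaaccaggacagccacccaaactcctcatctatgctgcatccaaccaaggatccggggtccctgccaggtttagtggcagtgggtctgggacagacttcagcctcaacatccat
Igkv3-5: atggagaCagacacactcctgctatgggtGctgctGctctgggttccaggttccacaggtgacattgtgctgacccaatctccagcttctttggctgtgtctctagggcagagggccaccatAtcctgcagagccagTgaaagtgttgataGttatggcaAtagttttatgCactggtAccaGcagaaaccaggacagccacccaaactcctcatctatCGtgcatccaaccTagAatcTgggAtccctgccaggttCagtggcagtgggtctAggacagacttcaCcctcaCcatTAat
Igkv3-10: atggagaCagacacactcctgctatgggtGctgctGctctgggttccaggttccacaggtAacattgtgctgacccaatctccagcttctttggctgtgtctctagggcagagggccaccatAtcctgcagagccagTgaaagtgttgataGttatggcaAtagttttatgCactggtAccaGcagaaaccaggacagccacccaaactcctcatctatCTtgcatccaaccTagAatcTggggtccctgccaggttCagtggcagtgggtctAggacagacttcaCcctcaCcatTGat
Over the coding sequence, Igkv3-5 and Igkv3-10 are each 91.1% identical to Igkv3-2 and 98.3% identical to each other. Reads that cannot separate Igkv3-5 from Igkv3-10 could be split or dropped in counting, so the division between this pair is uncertain. Of the 50-base windows of their transcripts, 48.6% (Igkv3-5), 46.5% (Igkv3-10) and 78.7% (Igkv3-2) occur in no other annotated V transcript.

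The 2 family 6 segments that led in the chimaeras or in a cluster of Day14 2 are shown next in coding sense from the minus strand, with capitals in Igkv6-15 at bases that differ from Igkv6-23. Igkv6-23 lies at chr6:70260409-70260955 and Igkv6-15 at chr6:70406469-70406992.
Igkv6-23: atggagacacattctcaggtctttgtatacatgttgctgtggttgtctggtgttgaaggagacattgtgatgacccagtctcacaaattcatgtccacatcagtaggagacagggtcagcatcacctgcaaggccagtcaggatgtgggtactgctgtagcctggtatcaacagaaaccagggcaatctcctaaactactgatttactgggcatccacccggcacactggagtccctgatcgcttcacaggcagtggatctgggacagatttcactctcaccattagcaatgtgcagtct
Igkv6-15: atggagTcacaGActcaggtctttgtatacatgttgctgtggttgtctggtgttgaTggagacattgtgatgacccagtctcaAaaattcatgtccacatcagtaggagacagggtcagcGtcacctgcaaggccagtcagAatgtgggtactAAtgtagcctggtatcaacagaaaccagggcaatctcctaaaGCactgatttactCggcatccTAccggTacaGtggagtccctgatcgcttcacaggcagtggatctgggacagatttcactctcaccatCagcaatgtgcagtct
This pair is 94.5% identical over the coding sequence. Among the 100 functional segments the median share of 50-base windows unique to the segment was 76.3%, and 13 segments had under 50%. All the sequences are those of GENCODE vM21 transcripts, so mutations carried by the cells are not shown.

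Kappa use was broad in the chimaeras and concentrated in the Day14 libraries. The effective number of segments, the inverse Simpson index over assigned cells, was 37.0 (95% interval 35.4 to 38.6) in KO and 42.5 (40.8 to 44.4) in control, against 17.2 (15.97 to 18.6) in Day14 1 and 9.92 (9.28 to 10.7) in Day14 2. With every cell thinned to 1000 UMIs the values were 32.3, 37.9, 14.8 and 7.44 in the same order, after leaving out 14, 40, 336 and 501 shallower cells. The order of the libraries held with total UMIs per cell made equal. Igkv UMIs per cell were not made equal, and the share of cells assigned was then 38.8%, 40.7%, 15.7% and 16.4%. All such intervals cover counting error only, since cells of a clone are not independent. Assigned cells used 97, 97, 96 and 91 different segments. The makeup by cells overlapped by 83.9% between KO and control, by 66.5% between Day14 1 and Day14 2, and by 51.0% to 62.3% between a chimaera and a Day14 library. The labels give irradiation and marrow transfer for the chimaeras and not for the Day14 libraries. The chimaera and Day14 libraries also differ in table construction and in the kappa background measured in lambda cells. These differences cannot be told apart.

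Igkv3-2 was the most used segment over the 4 libraries weighted equally, with a mean of 12.4% of assigned cells. It marked 1.72% of assigned cells in KO and 2.23% in control, against 17.7% (16.4% to 19.0%) in Day14 1 and 28.1% (26.8% to 29.5%) in Day14 2. Igkv3-5 marked 0.860% in KO, 0.957% in control, 12.6% in Day14 1 and 2.39% in Day14 2. It was high in a single library, whereas Igkv3-2 was high in both Day14 libraries. Igkv3-10 marked 0.837%, 0.766%, 4.84% and 3.39% in that order of libraries. The family 3 segments together took 10.4% of assigned cells in KO, 9.21% in control, 40.0% in Day14 1 and 38.5% in Day14 2.

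Igkv6-23, the next most used, marked 5.56% (4.91% to 6.28%) of assigned cells in KO and 2.25% (1.85% to 2.72%) in control. In the Day14 libraries it marked 1.68% of Day14 1 cells and 10.9% of Day14 2 cells, so libraries of the same kind differed as widely as any pair. Igkv6-15 marked 5.59% in KO, 6.36% in control, 3.16% in Day14 1 and 2.36% in Day14 2, and led the control library. Igkv10-96 led the KO library with 6.92%, against 4.79% in control, and marked 2.54% and 1.28% in Day14 1 and Day14 2. The other 6 of the 12 leading segments were Igkv1-135, Igkv1-110, Igkv14-111, Igkv1-117, Igkv6-17 and Igkv9-120. Each marked between 2.67% and 4.62% of assigned cells in the chimaeras and between 0.738% and 3.13% in the Day14 libraries. At the other end, Igkv4-54 and Igkv7-33 had the smallest mean shares above 0, at 0.00532%, followed by Igkv20-101-2 and Igkv4-78 at 0.00580%.

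**Figure D1:**
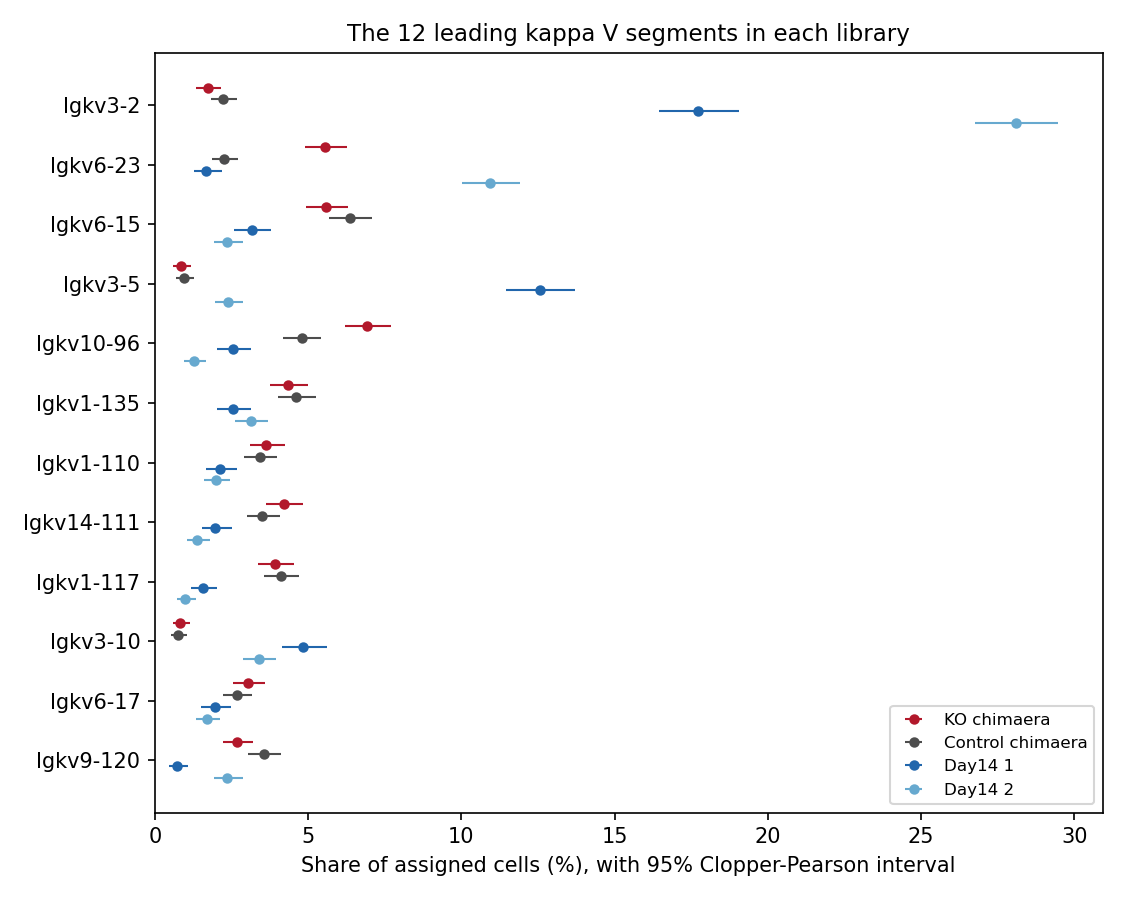
Share of assigned cells (%, x axis) for the 12 segments with the largest mean share (y axis), with points for the KO chimaera, control chimaera, Day14 1 and Day14 2 libraries and bars for 95% Clopper-Pearson intervals that cover counting error only. Igkv3-2 reaches 28.1% in Day14 2 and stays at 1.72% in KO and 2.23% in control.

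The shares held by stretches of the locus differed between the same libraries. The 34 functional segments nearest to Igkj1 (18.4 to 822 kb away) held 36.0% of assigned cells in KO, 32.6% in control, 57.7% in Day14 1 and 64.6% in Day14 2. The middle 33 held 19.4%, 24.8%, 15.6% and 14.4%, and the farthest 33 (1915 to 3166 kb) held 44.0%, 41.7%, 26.0% and 20.1%. Segments were in use in each of these stretches in every library, at least 26 of 34 in the nearest and 28 of 33 in the middle one. Igkv3-2, 23.5 kb from Igkj1, lies in the nearest stretch and alone took 17.7% of all assigned cells of Day14 1 and 28.1% of Day14 2. In the same stretch Igkv3-5 took 12.6% and 2.39%, Igkv3-10 4.84% and 3.39%, and Igkv6-23 1.68% and 10.9%, in that order. The stretches were not compared without these segments, so a shift along the whole locus was not tested.

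**Figure D2:**
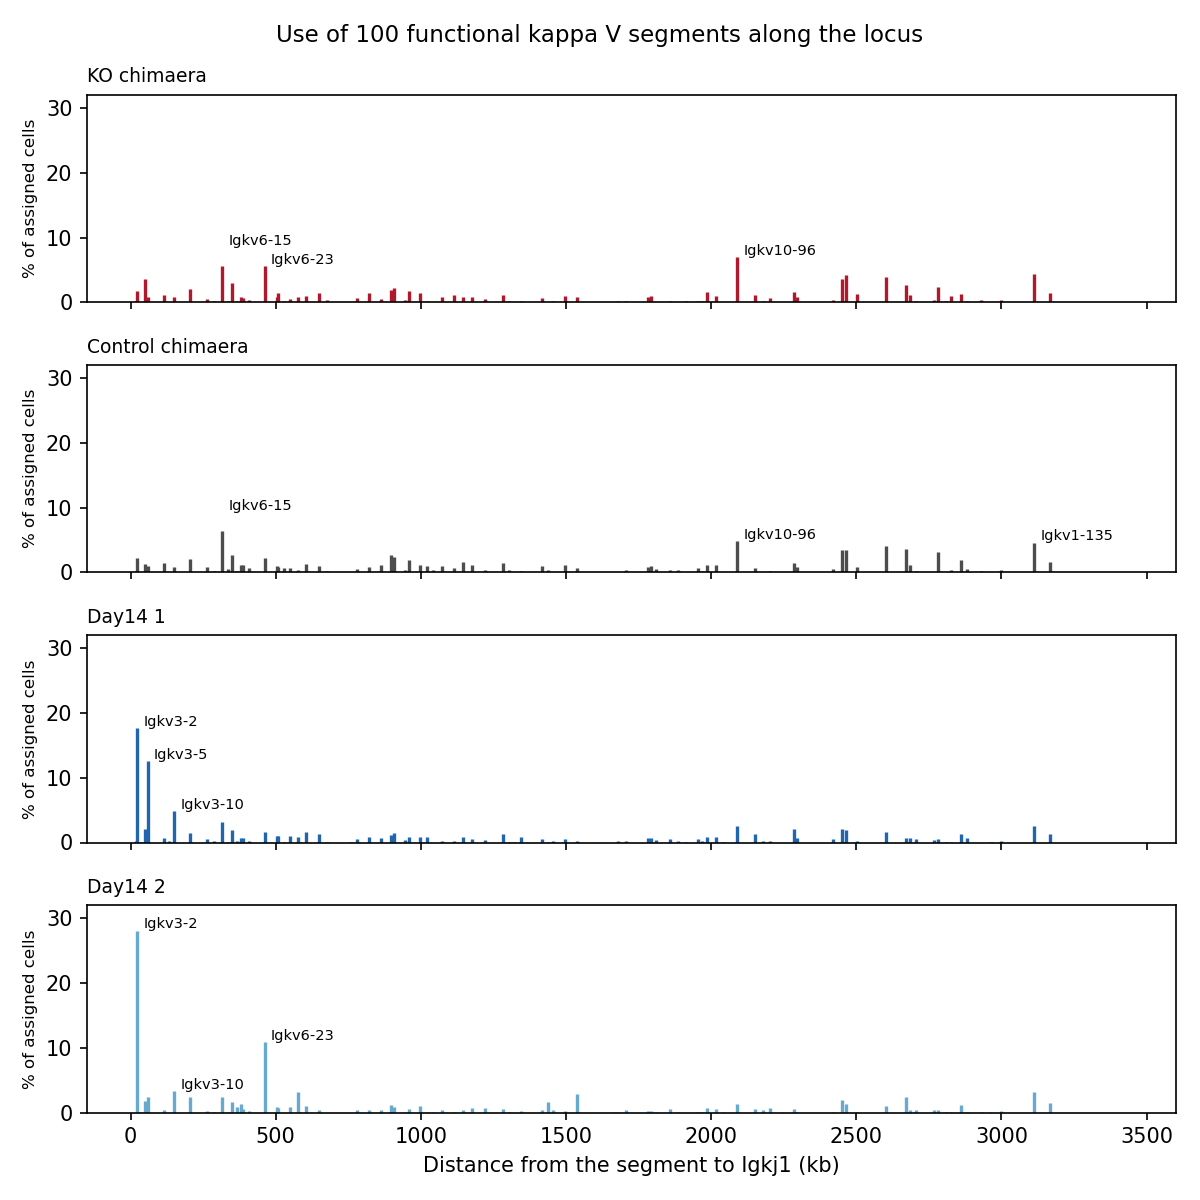
Share of assigned cells (%, y axis) against distance from each of the 100 functional segments to Igkj1 (kb, x axis), one panel per library, with the 3 most used segments named. Use is spread over the near and far ends of the locus in both chimaeras, while Igkv3-2 at 23.5 kb stands out in Day14 1 and Day14 2.

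Pairing with the heavy chain was examined in cells that passed the same rule for both Igkv and Ighv, 2534 in KO, 2761 in control, 653 in Day14 1 and 763 in Day14 2. These held 1276, 1351, 416 and 287 different pairs, and the 10 most frequent pairs held 5.92%, 7.10%, 25.9% and 50.7% of the paired cells. Of 2346 pairs in all, 27 occurred in every library and 32 had at least 5 cells in 2 or more, while 0 had at least 5 cells in all 4.

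Day14 2 was led by Ighv3-6 with Igkv3-2, found in 239 of 763 paired cells (31.3%, 28.0% to 34.7%). Ighv3-6 was the partner in 78.9% of its 303 paired Igkv3-2 cells. All 237 of these pairs with a called heavy chain class used Ighm, the constant gene of IgM. Among all assigned cells of that library with a called class, Ighm with Ighd made up 70.0%. The second pair was Ighv1-26 with Igkv6-23, in 33 cells, 12.7 times the number expected from the separate shares of its segments. Its 27 cells with a called class all used Ighg2c, an IgG2c constant gene. Ighg2c made up 11.3% of the assigned cells of the library with a called class. Ighv1-53 with Igkv3-2 and Ighv3-6 with Igkv3-5 followed, with 22 cells each.

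Day14 1 was led by Ighv1-72 with Igkv3-5, in 56 of 653 paired cells (8.58%, 6.54% to 10.99%), which made Ighv1-72 the partner in 82.4% of 68 paired Igkv3-5 cells. In Day14 2 the partner of Igkv3-5 was instead Ighv3-6, in 75.9% of 29 cells, and Ighv1-72 was found in 2 of them. Ighv1-53 with Igkv3-2 followed in Day14 1 with 45 cells, 5.69 times the expected number, and 100% of them used Ighm. Ighv1-72 with Igkv3-10 came next with 14 cells, and the same pair had 15 cells in Day14 2, 12.7 times the expected number. Igkv3-2 and Igkv3-5 therefore took their leading partners from different Ighv segments in the 2 libraries of the same group. The leading partner of Igkv3-10 was Ighv1-72 in both (43.8% of 32 cells in Day14 1 and 71.4% of 21 in Day14 2). In Day14 1 Ighv3-6 followed closely, with 11 of those 32 cells. The division of reads between Igkv3-5 and Igkv3-10 is uncertain, as given above. Class called as IgM was as common in assigned Igkv3-2 cells of Day14 1 (98.9% of 567) as of Day14 2 (98.9% of 1143). Both lay above the 77.6% and 70.0% of all assigned cells with a called class in those libraries.

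In the chimaeras the most frequent pair held 1.01% of paired cells or fewer. The leading KO pair was Ighv1-36 with Igkv10-96, with 22 of 2534 cells (0.868%, 0.545% to 1.31%), 10.3 times the expected number, followed by Ighv1-18 with Igkv6-23 (19 cells) and Ighv1-72 with Igkv1-135 (18 cells). The leading control pair was Ighv1-72 with Igkv6-15, with 28 of 2761 cells (1.01%, 0.675% to 1.46%), 1.32 times the expected number. Ighv1-53 with Igkv6-15 (27 cells) and Ighv8-8 with Igkv6-20 (21 cells) followed. The last was 23.0 times the expected number and took 52.5% of 40 paired Igkv6-20 cells. Igkv6-23 was spread over 47 partners among 139 paired cells in KO and 33 partners among 67 in control, with a leading partner at 13.7% and 10.4%. Igkv3-2, so concentrated in the Day14 libraries, had 31 partners among 47 cells in KO and 30 among 55 in control.

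Ighv1-72, the NP-associated heavy chain segment, was the partner in 10.6% of kappa-paired cells in KO, 12.1% in control, 15.0% in Day14 1 and 5.64% in Day14 2. Its kappa partners were spread in the chimaeras, where the most frequent was Igkv1-135 with 6.72% of 268 cells in KO and Igkv6-15 with 8.41% of 333 in control. In Day14 1 it was Igkv3-5 with 57.1% of 98 cells, and in Day14 2 Igkv3-10 with 34.9% of 43 and Igkv3-2 with 32.6%. Lambda cells were not left out of these pairs. A kappa segment was assigned to 46.2% of lambda cells in KO, 46.6% in control, 8.11% in Day14 1 and 7.88% in Day14 2. The spread of partners in the chimaeras is therefore less certain, and the part of background calls in it was not tested.

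Some cells carried 2 kappa segments, the second with at least 3 UMIs and at least 20% of the cell's Igkv UMIs. They were 26.6% of cells with a top segment of at least 3 UMIs in KO, 28.6% in control, 13.6% in Day14 1 and 11.2% in Day14 2. Their median depths were 10591, 9436, 5553 and 5831 UMIs, above the 7235, 6924, 4722 and 4511 UMIs of the others, and neither doublets nor free RNA was separated from cells with 2 transcribed alleles. Most combinations were scattered, with 558 of 852 seen in a single cell in KO and 588 of 917 in control. A few recurred. Igkv4-77 with Igkv6-23 took 98 of the 516 such cells of Day14 2, 49 of them in cluster 7, and 54 of its 62 cells with a called class used Ighg2c. Igkv4-77 is annotated as a pseudogene and is 63.3% identical to Igkv6-23, so this is not a pair of near copies. Igkv5-48 with Igkv6-15 took 38 cells in control, 15 of the 20 with an assigned heavy chain using Ighv1-53, and 18.4% of control Igkv6-15 cells had at least 3 Igkv5-48 UMIs, against 3.24% of KO Igkv6-15 cells. Igkv1-88 with Igkv3-2 took 31 cells in Day14 2, and all 31 used Ighm. These 3 combinations were chosen as the most frequent, after their values were seen.

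Segment use differed among the clusters the authors deposited. The clusters were made from the same cells' transcripts, and whether V genes entered the clustering is not given in the sources used here, so the values are a description. In the light zone-like cluster of the Day14 table (cluster 1, with 7 of 11 detected light zone markers raised), Igkv3-2 marked 22.5% of assigned cells of Day14 1 and 40.2% of Day14 2. In the memory-precursor-like cluster (cluster 6, with S100a10 and Klf2 among its leading genes) it marked 20 of 400 assigned cells of Day14 1, as many as Igkv1-110, and 12 of 212 (5.66%) of Day14 2. The effective number of segments was 42.9 and 34.6 in that memory-precursor-like cluster, against 11.3 and 5.79 in the light zone-like cluster of Day14 1 and Day14 2. In the chimaera table the memory-precursor-like cluster (cluster 3) reached 38.4 in KO and 40.6 in control, and the light zone-like cluster (cluster 0) 35.6 and 39.2. The memory-precursor-like cells of all 4 libraries were thus similarly diverse, and the lower effective numbers lay in the other Day14 clusters.

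Cluster 7 of the Day14 table held 321 cells, all of them in Day14 2, and met no marker list. Igkv6-23 marked 85.2% of its 176 assigned cells (79.1% to 90.1%) and Igkv4-77 marked 11.9%, which gave an effective number of 1.35. The other cells of Day14 2 fell in clusters shared with Day14 1. With a single library, a cell type cannot be told apart from a trait of that library. Of the 98 Day14 2 cells with both Igkv4-77 and Igkv6-23, 49 were in this cluster. Of those 98, 54 of 62 with a called class used Ighg2c, and 12 of 16 with an assigned heavy chain used Ighv1-26. The last counts cover all 98 cells, not the cluster alone. In the plasma-like cluster 9, Igkv8-28 led Day14 2 with 30.6% of 62 assigned cells, and its main partner in that library was Ighv1-18 (73.7% of 19 paired cells, 75.0% of 12 called as Ighg2b). In Day14 1 the same cluster was led by Igkv3-2 with 9.43% of 53. The other plasma-like cluster 8 was led by Igkv3-2 with 15.5% in Day14 1 and 17.6% in Day14 2. The chimaera plasma-like cluster 7 was led by Igkv6-15 with 10.0% of 110 assigned cells in KO and by Igkv10-96 with 7.95% of 239 in control. In the remaining chimaera clusters the leading segment was Igkv10-96, Igkv6-15, Igkv1-110 or Igkv1-135, at 5.56% to 9.46%. In the remaining Day14 clusters it was Igkv3-2, at 17.4% to 30.7%, apart from cluster 3 of Day14 1, led by Igkv3-5 with 16.2% of 80, and cluster 10, with no assigned cell among its 50.

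**Figure D3:**
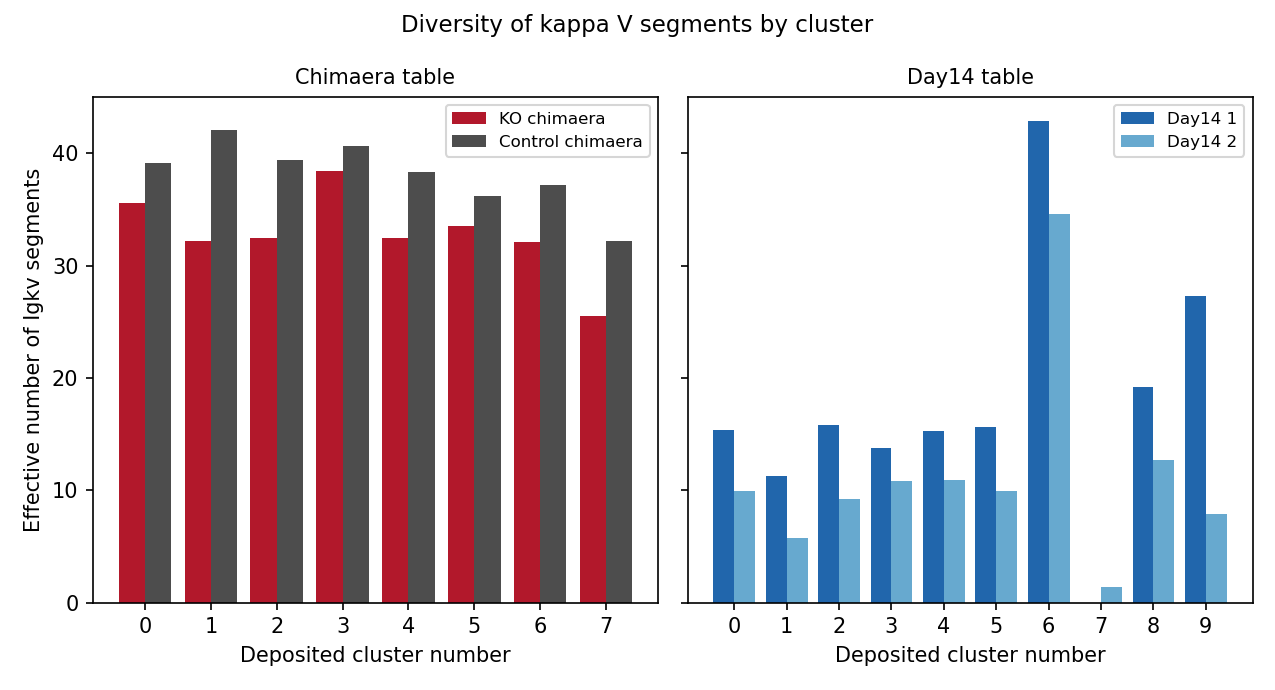
Effective number of Igkv segments among assigned cells (y axis) by deposited cluster (x axis), for KO and control in the chimaera table and Day14 1 and Day14 2 in the Day14 table. Cluster 6 of the Day14 table reaches 42.9 and 34.6, close to the chimaera clusters, and cluster 7, present in Day14 2, falls at 1.35.

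The comparison of KO with control asks whether loss of Il4ra in Ccl19-lineage stroma went with another kappa repertoire. It has 1 library per group and therefore no test. The size rule called a gene when it reached 20 CPM in KO or control, differed by 0.5 or more on the log2 scale and had an exact 95% counting interval that left out equality. Of the 117 listed segments 67 reached that level, and 8 of these were higher and 44 lower in KO, where 0.886% and 2.49% of all 5189 genes were higher and lower. The median log2 ratio was -0.97 over the segments and 0.01 over all genes. When counts were scaled to each library's Igkv total instead, 20 segments were higher and 24 lower. Between the 2 Day14 libraries, which share their labels, 14 of 30 segments were higher and 8 lower in Day14 1 than in Day14 2, where 0.522% and 0.310% of all genes were, so kappa segments stood apart between libraries of the same group as well.

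Plasma-like cells numbered 136 in KO and 288 in control and held 36.0% and 59.7% of the Igkv UMIs. Their part in the difference was not tested. Without them the Igkv share of UMIs was 0.378% in KO and 0.449% in control, and 4 of 56 segments were higher and 20 lower (16 of these lower, and 1 higher, also with plasma-like cells), where 0.736% and 1.41% of all genes were. The median log2 ratio was then -0.35. Among the 6 segments with the smallest ratio, Igkv4-51 stood at 1.61 CPM in KO and 28.1 CPM in control, a log2 ratio of -4.13. Igkv4-50, Igkv4-63, Igkv4-91, Igkv4-86 and Igkv8-16 lay between -3.46 and -2.67. In control, 63.6% to 86.1% of the UMIs of these 6 came from plasma-like cells and 81.3% to 94.1% from 10 cells. Without plasma-like cells their log2 ratios lay between -2.84 and -0.64.

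In the 6 with the largest ratio, 10 cells held 74.3% (Igkv5-43) to 90.2% (Igkv3-5) of the KO UMIs. Igkv14-130 stood at 26.8 CPM in KO and 2.81 CPM in control (log2 3.25), with 89.3% of its KO UMIs in 10 cells, and its ratio without plasma-like cells was 1.20. Igkv3-5 stood at 221 CPM in KO and 60.1 CPM in control (log2 1.88), against 33.1 and 44.8 CPM without plasma-like cells (log2 -0.44). Igkv5-43 likewise turned, at 196 CPM in KO and 111 CPM in control (log2 0.82), but -0.80 without plasma-like cells. Igkv8-34, Igkv9-123 and Igkv4-57-1, at 2.22, 1.85 and 1.01 with all cells, had 0.42, 0.57 and 0.10 without. The direction of 2 of these 6 turned when plasma-like cells were left out.

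**Figure D4:**
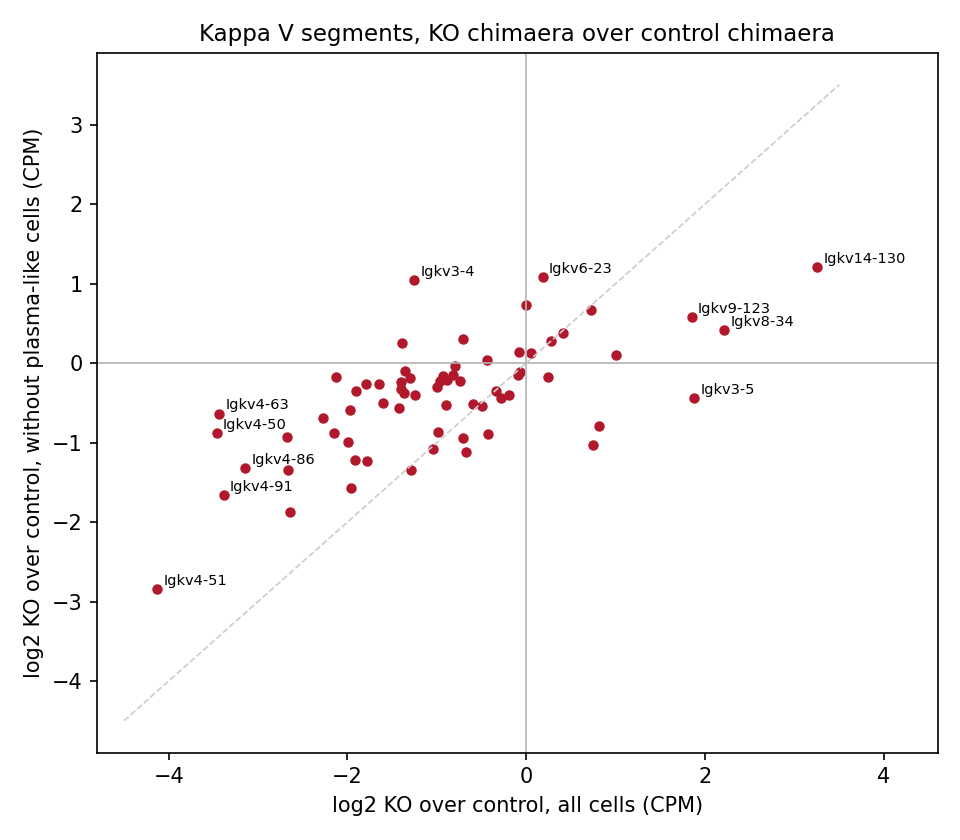
Log2 ratio of KO over control CPM for the 67 segments with at least 20 CPM in either chimaera library, with all cells (x axis) and without plasma-like cells (y axis); the dashed line marks equal values. Of the 67 points 51 lie nearer 0 on the y axis than on the x axis, and 10 change sign, among them Igkv3-4 (-1.26 and 1.05), Igkv3-5 (1.88 and -0.44) and Igkv5-43 (0.82 and -0.80).

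Counting cells in place of UMIs gave each cell the same weight. Of 40 segments that marked at least 1% of assigned cells in either chimaera, 8 were higher and 7 lower in KO with an interval that excluded equality. The same rule over 74 segments of both loci, these 40 included, called 16.2% higher and 17.6% lower, and of the 34 Ighv segments alone 4 were higher and 6 lower. Between Day14 1 and Day14 2 it called 11 of 28 kappa segments higher and 8 lower, where 34.5% and 19.0% of 58 segments of both loci were, and 9 of the 30 Ighv segments alone were higher and 3 lower. The largest ratio was that of Igkv14-126, with 1.04% of cells in KO and 0.383% in control (log2 1.44, 0.63 to 2.32). Igkv3-4 marked 3.53% of cells in KO and 1.32% in control (log2 1.42, 0.99 to 1.87). By CPM it had been lower in KO, at 128 CPM against 306 CPM in control, where 81.1% of its UMIs came from plasma-like cells; without those cells it stood at 126 CPM in KO and 61.1 CPM in control. Igkv6-23 was higher in KO by cells (log2 1.304, 0.97 to 1.65) and had CPM of 461 in KO and 405 in control, or 253 and 120 without plasma-like cells. The smallest ratios were those of Igkv12-41 (0.588% in KO and 1.08% in control, log2 -0.88, -1.62 to -0.17) and Igkv6-20 (0.611% and 1.08%, log2 -0.83, -1.56 to -0.13).

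Of the other antibody genes, 3 of 7 light chain constant and lambda V genes past the level were lower in KO and 0 higher, where 2.49% of all genes were lower and 0.886% higher, with Igkc at 837 CPM in KO and 1265 CPM in control (log2 -0.60). Among heavy chain constants 3 of 7 were lower and 0 higher, namely Igha (29.6 CPM in KO and 97.5 CPM in control), Ighg2c (43.5 and 131 CPM) and Ighg2b (88.1 and 157 CPM). The plasma-like cells, 136 in KO and 288 in control, and the summed plasma marker list, 2873 CPM in KO and 4082 CPM in control with 0 of 13 markers at 0, moved with these genes, and their part in the list counts was not tested. Of the 3 recombination genes, 15 regulators of kappa transcription and 7 receptor partners past the level, 0 were called in either direction.

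The comparison of light zone with dark zone, by the deposited zone call, asks whether kappa transcripts differ between the places where germinal centre B cells are selected and where they divide. In all 4 libraries Igkv took a larger share of UMIs in the light zone. The shares were 0.906% in light zone and 0.423% in dark zone cells of KO, 1.76% and 0.655% of control, 0.281% and 0.153% of Day14 1, and 0.228% and 0.159% of Day14 2. The mean log2 ratio was 0.98 ± 0.38 (SD, n = 4 libraries; exact sign-flip permutation test, two-sided p = 0.125, the smallest that 4 libraries allow). Without plasma-like cells it was 0.37 ± 0.15 (higher in 4 of 4), and without plasma-like and memory-precursor-like cells, an alternative chosen after seeing the data, it was 0.11 ± 0.15 (higher in 3 of 4, exact permutation p = 0.375). Plasma-like cells were 3.32% of light zone and 1.09% of dark zone cells in KO, and 6.58% and 1.68% in control. Memory-precursor-like cells were 25.8% of light zone and 5.53% of dark zone cells in KO, 30.7% and 6.16% in control, 10.4% and 3.01% in Day14 1, and 5.27% and 1.42% in Day14 2. The effective number of segments did not separate the zones, being higher in the light zone in 2 of 4 libraries (mean log2 ratio -0.03 ± 0.11, SD, n = 4).

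**Figure D5:**
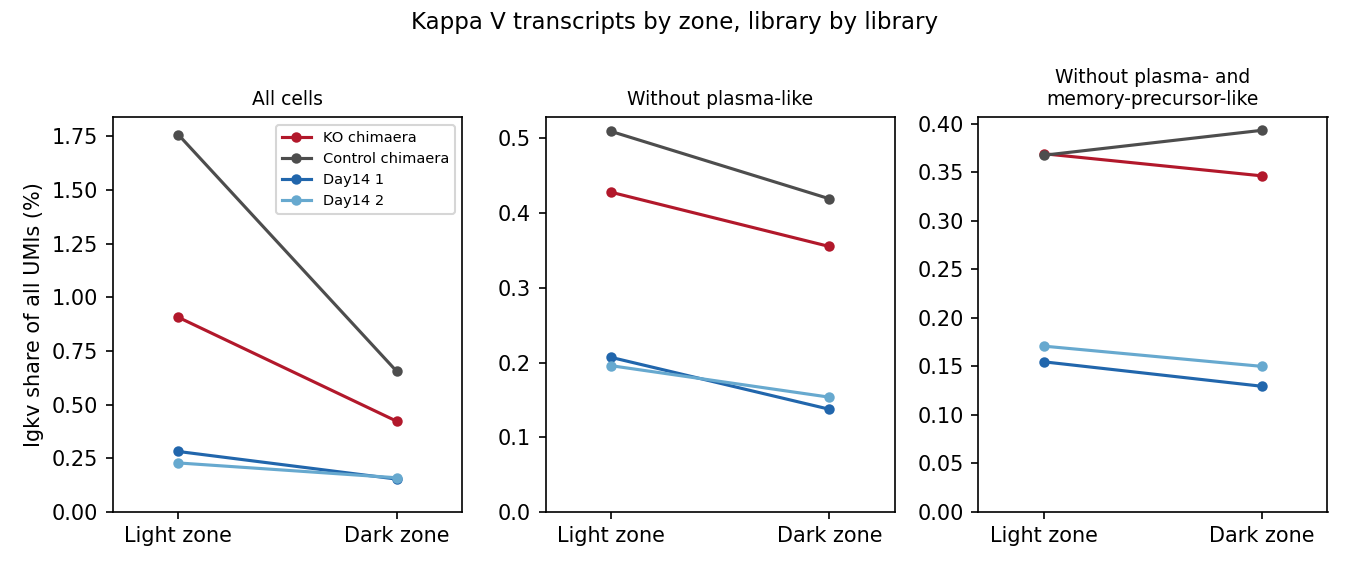
Igkv share of all UMIs (%, y axis) in light zone and dark zone cells (x axis) of each library, joined by lines, for all cells, without plasma-like cells, and without plasma-like and memory-precursor-like cells. The y axes of the panels differ in scale. With all cells the control library has 1.76% in the light zone and 0.655% in the dark zone, and the lines are close to level in the right panel.

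By segment, counts were summed per library and zone and tested with edgeR's quasi-likelihood test with library as a block over 11880 genes. Of the 100 segments with enough counts to be tested, 34 were higher and 1 lower in the light zone at an adjusted p under 0.05, where 26.6% of all genes were higher and 25.8% lower. The median log2 ratio was 0.70 over the segments and 0.01 over all genes, and 25 of the 34 higher ones were higher in all 4 libraries. Without plasma-like cells 35 were higher and 2 lower, and in cells with a deposited G1 phase call 43 of 89 were higher and 0 lower. Without plasma-like and memory-precursor-like cells, the alternative chosen after seeing the data, 13 of 96 were higher and 10 lower. Scaled to the Igkv total of each sum, which sets the segments against each other and so removes a shift they share, 4 were higher and 23 lower. With no library block 0 passed, and 3 had an unadjusted p under 0.05. The 26.6% and 25.8% of all genes belong to the main setting. That share was not counted in the other settings, so their counts of segments have no such share beside them.

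Igkv14-111 had the lowest adjusted p. Its values were 245 CPM in light zone and 126 CPM in dark zone cells of KO, 344 and 152 CPM of control, 53.6 and 24.5 CPM of Day14 1, and 42.4 and 17.3 CPM of Day14 2. It was higher in the light zone in all 4 libraries (log2 1.11, SE 0.05, edgeR adjusted p = 5.46e-06). Igkv1-135 stood at 499 and 219 CPM in KO, 827 and 498 CPM in control, 60.3 and 31.5 CPM in Day14 1, and 83.1 and 44.1 CPM in Day14 2 (log2 0.92, SE 0.08, edgeR adjusted p = 7.28e-05). Igkv1-110, Igkv12-46 and Igkv4-70 followed at log2 1.61, 0.92 and 1.45. Without plasma-like and memory-precursor-like cells, 4 of these 5 did not pass, at log2 0.01 to 0.29, and Igkv4-70 did, at 1.69. The 1 lower segment was Igkv8-34, at 10.9 CPM in light zone and 40.7 CPM in dark zone cells of KO, 6.07 and 7.11 CPM of control, 0.852 and 1.43 CPM of Day14 1, and 0.955 and 0.702 CPM of Day14 2 (log2 -1.03, SE 0.34, edgeR adjusted p = 0.0362). It did not pass without KO (log2 -0.26), without Day14 1 (log2 -1.05) or in DESeq2 (log2 -0.72). It passed without control (log2 -1.66) and without Day14 2 (log2 -1.13). Without the plasma-like cells of all 4 libraries it was 0.13.

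The counts for the other genes of the pathway stand beside the same 26.6% of all genes higher and 25.8% lower. Of these, 6 of 7 light chain constant and lambda V genes were higher in the light zone and 0 lower, with Iglc2 at log2 0.93 (SE 0.09, edgeR adjusted p = 0.000131) and Igkc at 0.40 (SE 0.09, 0.0106). Of 8 heavy chain constants 6 were higher and 0 lower. Of 7 receptor partners 5 were higher and 0 lower, including Cd79a, the signalling partner of the antigen receptor, at 0.36. Of 17 regulators of kappa transcription 8 were higher, including Irf4 at 1.35 and Rel at 0.43, and 6 lower, including the octamer coactivator Pou2af1 at -0.59 and the architectural factor Ctcf at -0.74. Of 8 recombination and surrogate light chain genes tested 1 was higher, the end-joining kinase Prkdc at 0.21, and 3 were lower, the ligase Lig4 at -1.24, Vpreb3 at -0.41 and Xrcc6 at -0.32. Rag1 and Rag2, the recombinase genes, were too low to be tested.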

How the data were processed

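The measurements were UMI counts per gene and cell from 10x 5′-end single-cell RNA sequencing of sorted mouse splenic B cells. The authors deposited the counts unnormalised, together with cell tables that give library, zone, phase and cluster, per the file headers; Cell Ranger, Seurat and mm10 are named without versions or roles, per the submitters' processing notes. All deposited cells were kept, no doublet caller was run, and leaving out the 5% of cells with the most UMIs was an alternative. The day 7 table lists no Igkv symbol and was not used, nor was the column of receptor barcodes. Depth was 35637133 to 62202828 UMIs per library, and Clopper-Pearson and exact binomial intervals (95%) cover counting error only.

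Counts were summed per library (KO against control and Day14 1 against Day14 2, size rule, no test) or per library and zone (edgeR 4.0.16 in R 4.3.3, filterByExpr, TMM, library as block, Benjamini-Hochberg; DESeq2 1.42.0 as an alternative). The block comes from the design, since both zones of a library are the same sorted cells. On simulated data, edgeR recovered 97% of genes changed by a log2 of 1, with 10 false calls among 11829 genes. The size rule recovered 100%, with 0 false calls among 5189. The edgeR simulation gave every gene the same spread and no differences between libraries beyond depth. In the data the median SE was 0.35 over the segments and 0.07 over all genes. Between the Day14 libraries the size rule called 14 of 30 segments higher and 8 lower. The simulated rates therefore do not carry over to the segments.

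Heavy chain class was called from the constant genes by the rule used for segments, with Ighm and Ighd summed. Clusters were called by a marker list when its median log2 was at least 0.5 with at least 3 raised markers; after seeing the data, clusters without a marker of a non-B class among their leading genes were left unnamed for that class. Named segments are the 12 with the largest mean share of cells, those with 5% in any library, the 6 largest and 6 smallest KO over control ratios, the 5 lowest adjusted p in each direction between zones, the 3 leading pairs per library, the 6 pairs furthest above expectation with at least 20 cells, the leading segment of each cluster, and the lowest shares above 0. Segments, lists and tests were chosen with earlier results of these data known. Segment sequences came from GENCODE vM21 transcripts and were aligned with Biopython 1.88.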

Additional observations from a re-analysis of the deposited data

How the results depend on the processing

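Of 214 recomputed values over 39 results, 122 were labelled the same, 69 moved, 16 no longer passed and 7 turned. The 122 stayed on the same side, within their interval or, for counts of segments, near the main count. Between zones that count was the sum of higher and lower segments, so the label does not cover direction. Scaling to the Igkv total was labelled the same there, with 4 higher and 23 lower segments against 34 and 1 in the main setting. In the order KO, control, Day14 1 and Day14 2, a minimum of 1 UMI assigned 69.6%, 69.7%, 60.9% and 65.3% of cells, a minimum of 10 UMIs 49.0%, 48.1%, 16.6% and 16.8%, and thinning to 1000 UMIs 38.8%, 40.7%, 15.7% and 16.4%. The effective number was 34.0, 39.2, 15.2 and 7.37 with a minimum of 10 UMIs and 32.3, 37.9, 14.8 and 7.44 after thinning; with a minimum of 1 UMI it moved to 19.05 (Day14 1) and 11.8 (Day14 2), and with at least 90% of the UMIs to 33.2 (KO), 15.0 (Day14 1) and 8.53 (Day14 2). The share of the most frequent pair moved to 1.39% (KO), 11.5% (Day14 1) and 34.8% (Day14 2) with at least 90% of the UMIs, to 5.71% (Day14 1) and 40.6% (Day14 2) with a minimum of 10 UMIs, and to 15.4% (Day14 2) with a minimum of 1 UMI. In no setting did a chimaera reach the concentration of a Day14 library. KO over control counts were 20 higher and 24 lower when scaled to the Igkv total, 4 and 20 without plasma-like cells, and 5 higher with an absolute log2 of 1. Without plasma-like cells Igkv3-5 turned to -0.44, Igkv5-43 to -0.80 and Igkv3-4 to 1.05.

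Between zones, 35 segments passed with the library as a block and 0 without this replicate block. Without plasma-like and memory-precursor-like cells 23 passed, and 31 to 39 when 1 library was left out. The share of all genes called between zones was counted in the main setting only. Scaled to the Igkv total, Igkv1-135 turned to -0.056 and Igkv12-46 to -0.10; Igkv8-34 turned to 0.13 without plasma-like cells and 0.30 in G1 cells. Depth limits the Day14 libraries most, where a median cell held 2 Igkv UMIs, and the kappa background of lambda cells limits the chimaeras. The cause of these shifts was not tested.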

Other observations

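Pseudogene segments were read at low levels. The 60 annotated V pseudogenes held 0.632% of Igkv UMIs in KO, 0.332% in control, 0.542% in Day14 1 and 2.11% in Day14 2, and topped 23, 41, 22 and 40 assigned cells. In Day14 2 the pseudogene Igkv4-77 alone held 2.01% of the Igkv UMIs of cells outside the lambda and plasma-like cells. It marked 11.9% of the 176 assigned cells of cluster 7. The table of the chimaeras lists 17 of the 60, of which 15 had a UMI in KO and 16 in control, so their use there is measured over fewer segments.

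Segments in both orientations of the locus were used unequally across libraries. The 38 functional segments on the plus strand, the strand of Igkc, held 47.2% of assigned cells in KO, 44.7% in control, 63.6% in Day14 1 and 58.4% in Day14 2, and the 62 on the minus strand, which join by inversion, held 52.3%, 54.4%, 35.8% and 40.6%. The plus strand includes Igkv3-2, Igkv3-5 and Igkv3-10. These took 17.7%, 12.6% and 4.84% of assigned cells in Day14 1, and 28.1%, 2.39% and 3.39% in Day14 2. The strands were not compared without these segments.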
